A study of Mus musculus with 18 samples.

Results

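The polycomb repressive complex 2 (PRC2) genes examined here are Ezh1, Ezh2, Eed, Suz12, Jarid2, Mtf2, Phf1, Phf19, Epop and Aebp2, the core and accessory subunits of the complex. They were chosen by gene name, and all 10 were present among the 52636 genes of the deposited files. PRC2 methylates lysine 27 of histone H3, a mark of silenced developmental genes. EZH1 and EZH2 are alternative catalytic subunits, EED binds the mark and stimulates the enzyme, and SUZ12 is the scaffold. In dividing cells EZH2 is the usual enzyme, and EZH1 is known to persist in cells that no longer divide. The accessory proteins define alternative forms of the complex. PRC2.1 holds a Polycomb-like protein (PHF1, MTF2 or PHF19) and can hold EPOP, whereas PRC2.2 holds JARID2 and AEBP2.

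Poly-A RNA was sequenced from testis, brain and liver of male C57BL/6 mice aged 8 weeks that were knockout (KO) for Pcgf6 or wild type (WT), with 3 libraries for each genotype and tissue and 18 in all. PCGF6 belongs to PRC1.6, a polycomb complex distinct from PRC2, so the design asks whether PRC2 transcripts differ with loss of a PRC1 subunit, and how they differ between the tissues. The labels give no other allele, no treatment and no statement of whether a library is 1 animal, so the p values measure the spread between these libraries. KO libraries carry the numbers 4 to 6 and WT libraries 1 to 3 in every tissue.

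Levels are the FPKM values (read counts corrected for gene length and library size) that the authors deposited. Depth was 20098777 to 23335596 reads per library in testis, 20759022 to 23183662 in brain and 18990130 to 23529098 in liver. The targeted gene, Pcgf6, measured 10.6, 9.58 and 9.58 FPKM in KO testis, against 20.4, 19.9 and 22.3 FPKM in WT testis. In brain it measured 3.30, 4.2 and 4.42 FPKM in KO, against 4.58, 5.18 and 5.29 FPKM in WT. In liver it measured 2.66, 1.66 and 1.44 FPKM in KO, against 4.99, 4.08 and 5.66 FPKM in WT. KO libraries lay below WT libraries in each tissue and kept reads of the gene, and the deleted part of it is not given in the sources used here. The limma adjusted p was 0.0638 in testis, 1 in brain and 0.485 in liver, and with limma voom the testis value was 0.0222. Summed hepatocyte markers reached 66369 to 74999 FPKM in liver, and summed neuron markers 503 to 560 FPKM in brain. Spermatid markers reached 17367 to 29576 FPKM in testis. The summed spermatogonium list did not set testis apart, at 33.7 to 50.1 FPKM there against 50.9 to 85 FPKM in WT liver, though WT liver and WT brain held no read of its members Stra8 and Dmrt1. Testis WT 3 stood apart, with a Pearson correlation over 11290 genes of 0.9768 to 0.9800 to the other testis libraries, whose own highest values were 0.9934 to 0.9955. It had the lowest spermatid sum, 17367 FPKM, and the highest Sertoli and Leydig sums, 108 and 750 FPKM; the part of these cells in the results below was not tested. In whole tissue, fewer cells of a type and less RNA per cell cannot be told apart.

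The promoter sequences of Ezh1, Ezh2 and Phf1 are shown because the paralogous pair Ezh1 and Ezh2 differed in tissue order and Phf1 had the highest level of the 10 subunits in testis and liver. They are RefSeq sequences of build GRCm38.p6, from 250 bases before to 20 bases after the RefSeq start of the gene, on the gene's own strand. The Ezh1 stretch lies at chr11:101226444-101226713, minus strand, the Ezh2 stretch at chr6:47595011-47595280, minus strand, and the Phf1 stretch at chr17:26932877-26933146, plus strand. For Ezh2 the RefSeq start lies downstream of the deposited start, base 47595341, and the whole stretch falls inside the deposited gene. Capitals mark 2 motif types searched on both strands, the E2F-type octamers TTTGGCGC, TTTCCCGC, TTTGCCGC and TTTCGCGC and the GC box GGGCGG.
Ezh1: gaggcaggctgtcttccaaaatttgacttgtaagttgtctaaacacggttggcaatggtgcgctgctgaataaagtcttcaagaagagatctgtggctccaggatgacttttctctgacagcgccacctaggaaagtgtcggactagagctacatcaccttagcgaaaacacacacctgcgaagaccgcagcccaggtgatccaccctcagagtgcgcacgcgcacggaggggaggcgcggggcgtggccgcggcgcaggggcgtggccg
Ezh2: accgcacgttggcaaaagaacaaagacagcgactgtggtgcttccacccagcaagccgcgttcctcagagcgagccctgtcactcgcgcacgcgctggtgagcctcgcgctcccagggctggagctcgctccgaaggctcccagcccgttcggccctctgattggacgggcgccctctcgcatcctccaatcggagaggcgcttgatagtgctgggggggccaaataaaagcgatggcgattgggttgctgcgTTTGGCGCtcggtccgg
Phf1: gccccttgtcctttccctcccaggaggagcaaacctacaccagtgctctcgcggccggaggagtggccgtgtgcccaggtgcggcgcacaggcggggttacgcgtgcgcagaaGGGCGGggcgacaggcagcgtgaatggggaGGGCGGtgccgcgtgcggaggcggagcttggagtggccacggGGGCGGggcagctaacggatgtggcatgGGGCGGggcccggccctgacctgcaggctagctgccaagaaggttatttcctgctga
The Ezh2 stretch holds 1 E2F-type octamer, TTTGGCGC, which begins at base 4 after the RefSeq start, and the Ezh1 stretch holds neither motif. The Phf1 stretch holds 4 GC boxes, as does the window of Phf19, the scarcest subunit. Windows were found for 9 of the 10 genes, from 250 bases before to 50 after the start; Epop is named only. E2F-type octamers also occurred in the Suz12 and Phf19 windows, and in 2.26% of all 32851 windows. GC boxes also occurred in windows of Suz12, Jarid2, Mtf2 and Aebp2, and in 35.7% of all windows, and the E-box CACGTG, found in 7.15%, in none of the windows of these 9 genes. Jarid2, Mtf2 and Aebp2 have more than 1 window, whereas the shares are per window. GC content ran from 45.7% in 1 Mtf2 window to 74.3% in the Phf19 window, beside a median of 52.7% over all windows. Enrichment of these motifs in the subunit genes was not tested. A match is a description of the letters and not evidence of binding.

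Ezh2 transcript was abundant in testis and scarce in brain and liver, and Ezh1 was highest in brain, so the balance of the catalytic subunits differed between tissues. Ezh2 (ENSMUSG00000029687) lies on chromosome 6 from 47530139 to 47595341 on the minus strand (mm10). It measured 10, 9.27 and 9.73 FPKM in WT testis, 0.885, 0.828 and 0.779 FPKM in WT brain, and 1.13, 0.754 and 1.10 FPKM in WT liver. Every testis library lay above every library of both other tissues, whose ranges overlapped. The mean in testis was 11.7 times that in brain, with a log2 difference of 3.4 ± 0.10 (SE, n = 3 each, limma adjusted p = 6.33e-08). Against liver it was 9.76 times, with a log2 difference of 3.18 ± 0.17 (SE, limma adjusted p = 1.9e-06). Between brain and liver Ezh2 did not pass the test, at -0.21 (limma adjusted p = 0.285). That value was -0.38 and passed without liver WT 2 (limma adjusted p = 0.0334), and with libraries scaled by their total reads it was 0.54 and also passed (0.0163), so no direction is given for it.

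Ezh1 (ENSMUSG00000006920) lies on chromosome 11 from 101191115 to 101226463 on the minus strand. It measured 4.53, 4.55 and 4.24 FPKM in WT testis, 8.35, 7.70 and 8.03 FPKM in WT brain, and 3.33, 3.51 and 3.39 FPKM in WT liver. The 3 tissues did not overlap, with brain highest and liver lowest. The mean in brain was 2.35 times that in liver, with a log2 difference of 1.21 ± 0.07 (SE, limma adjusted p = 5.52e-06). The mean in testis was 0.553 of that in brain, with a log2 difference of -0.84 ± 0.08 (SE, limma adjusted p = 3.89e-05). Testis exceeded liver by 0.37 ± 0.10 on the log2 scale (SE, limma adjusted p = 0.00895), and without testis WT 1 or testis WT 2 this call was lost at 0.35 (limma adjusted p = 0.0757 and 0.0765). With scaling by total reads the difference was 1.08 (limma adjusted p = 2.94e-05).

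The ratio of Ezh1 to Ezh2 within a library does not depend on how libraries are scaled. It averaged 0.459 ± 0.0286 in WT testis, 9.68 ± 0.552 in WT brain and 3.57 ± 0.948 in WT liver (SD, n = 3 each). No tissues overlapped, and the exact two-sided permutation p was 0.1 for each of the 3 pairs of tissues, the smallest that 3 against 3 libraries allow. As a share of the summed Ezh1 and Ezh2 FPKM, Ezh2 made up 68.6 ± 1.33% in WT testis, 9.38 ± 0.471% in WT brain and 22.5 ± 4.18% in WT liver (SD, n = 3 each). The summed level itself was 14.1 ± 0.403 FPKM in WT testis, 8.85 ± 0.356 FPKM in WT brain and 4.41 ± 0.12 FPKM in WT liver (SD, n = 3 each). KO libraries had Ezh1 to Ezh2 ratios of 0.409 ± 0.0753 in testis, 9.15 ± 1.07 in brain and 3.07 ± 0.539 in liver (SD, n = 3 each). Their log2 difference from WT was -0.18 in testis, -0.09 in brain and -0.20 in liver, with exact two-sided permutation p of 0.4, 0.5 and 0.6 over 3 libraries a group. KO and WT libraries overlapped in this ratio in each tissue.

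**Figure D1:**
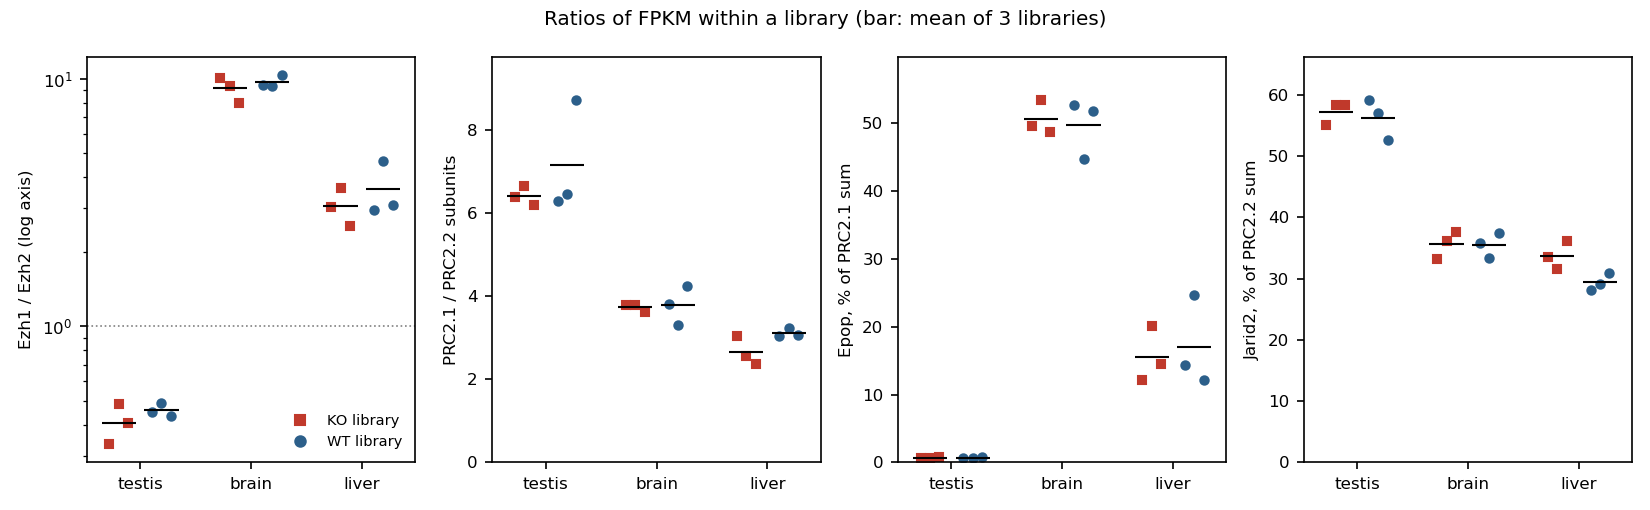
Ratios of FPKM within each of the 18 libraries, with tissues on the x axis, KO libraries as squares, WT libraries as circles and bars for the mean of 3 libraries; the first panel has a log axis and the others start at 0. The Ezh1 to Ezh2 ratio averages 0.459 in WT testis, 9.68 in WT brain and 3.57 in WT liver, and KO squares overlap WT circles in that panel in every tissue.

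With the deposited scaling, the scaffold Suz12 varied little between tissues and Eed was low in brain. Suz12 (ENSMUSG00000017548) lies on chromosome 11 from 79993106 to 80034123 on the plus strand. It measured 9.18, 10.1 and 9.79 FPKM in WT testis, 7.48, 7.33 and 6.36 FPKM in WT brain, and 8.37, 8.39 and 7.90 FPKM in WT liver. The tissues did not overlap, but the distances were small. Testis exceeded brain by 0.45 ± 0.09 on the log2 scale (SE, limma adjusted p = 0.00263). Testis exceeded liver by 0.23 ± 0.09 (SE, limma adjusted p = 0.0382), a call that was lost with the replicate number as a block (0.23, adjusted p = 0.081) and on leaving out any 1 of the 6 libraries. With scaling by total reads the same difference was 0.96 (adjusted p = 7.14e-05). Brain was lower than liver by -0.22 ± 0.09 on the log2 scale (SE, limma adjusted p = 0.0492), but this call was lost without the low-value filter, with limma voom, with the replicate block and on leaving out any 1 of the 6 libraries. With scaling by total reads it turned to 0.61 and was called (adjusted p = 0.00032), so no direction is given for it.

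Eed (ENSMUSG00000030619) lies on chromosome 7 from 89954654 to 89980983 on the minus strand. It measured 7.63, 7.12 and 8.25 FPKM in WT testis, 3.52, 3.37 and 3.17 FPKM in WT brain, and 7.78, 5.46 and 6.89 FPKM in WT liver. Brain libraries lay below all others, and testis and liver overlapped. Brain was at 0.499 of the liver mean, with a log2 difference of -0.97 ± 0.14 (SE, limma adjusted p = 0.000517), but at -0.14 the call was lost with scaling by total reads (adjusted p = 0.311). Testis was at 2.29 times the brain mean, with a log2 difference of 1.17 ± 0.09 (SE, limma adjusted p = 1.43e-05). Testis and liver did not differ by the test (0.20 ± 0.15, SE, limma adjusted p = 0.235), though with scaling by total reads the difference was 0.93 and passed (0.00101). In the GENCODE M21 annotation, 6.82% of Eed exon bases overlap E230029C05Rik on the opposite strand. That gene was also highest in testis, at 1.64 ± 0.689 FPKM in WT testis, 0.303 ± 0.0781 FPKM in WT brain and 0.145 ± 0.0373 FPKM in WT liver (SD, n = 3 each). Its part in the Eed values was not tested.

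Within a library, the ratio of Eed to Suz12 averaged 0.794 ± 0.0751 in WT testis, 0.476 ± 0.0197 in WT brain and 0.818 ± 0.147 in WT liver (SD, n = 3 each). Brain lay below both other tissues without overlap (exact two-sided permutation p = 0.1, the smallest possible), and testis and liver overlapped (exact p = 0.8). The summed Ezh1 and Ezh2 level over Suz12 averaged 1.46 ± 0.112 in WT testis, 1.26 ± 0.114 in WT brain and 0.537 ± 0.0299 in WT liver (SD, n = 3 each). Liver lay below testis and brain (exact p = 0.1 each), and testis and brain overlapped (exact p = 0.2). KO libraries gave 1.60 ± 0.104 in testis, 1.33 ± 0.0802 in brain and 0.526 ± 0.0327 in liver for the same ratio (SD, n = 3 each), with exact p against WT of 0.2, 0.4 and 0.6.

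Among the Polycomb-like proteins of PRC2.1, Phf1 transcript dominated in every tissue, Mtf2 followed and Phf19 was lowest, with few reads in testis and brain. Phf1 (ENSMUSG00000024193) lies on chromosome 17 from 26933127 to 26937890 on the plus strand. It measured 59.3, 62.7 and 73.8 FPKM in WT testis, 15.6, 16.4 and 15.1 FPKM in WT brain, and 14.6, 11.5 and 15.3 FPKM in WT liver. Testis libraries lay far above the others, and brain and liver overlapped. The testis mean was 4.16 times that of brain (log2 2.04 ± 0.10, SE, limma adjusted p = 8.47e-07) and 4.74 times that of liver (2.24 ± 0.14, SE, adjusted p = 5.65e-06). The files give Phf1 an exon length of 2429 bases, against 3486 bases in the GENCODE M21 annotation, where 39.3% of its exon bases overlap Cuta on the opposite strand. The overlap in the authors' own gene models was not computed, and Cuta had the opposite tissue order, at 19.7 ± 3.96 FPKM in WT testis, 50.3 ± 1.31 FPKM in WT brain and 84.1 ± 4.54 FPKM in WT liver (SD, n = 3 each). How the authors' counting treated strand is not given in the sources used here.

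Mtf2 (ENSMUSG00000029267) lies on chromosome 5 from 108065674 to 108109004 on the plus strand. It measured 10.4, 9.61 and 8.28 FPKM in WT testis, 5.85, 5.69 and 5.65 FPKM in WT brain, and 2.24, 1.87 and 1.80 FPKM in WT liver. The tissues did not overlap and fell in that order. The testis mean was 1.64 times that of brain (log2 0.70 ± 0.10, SE, limma adjusted p = 0.000401), and the brain mean was 2.91 times that of liver (1.5 ± 0.11, SE, adjusted p = 1.16e-05). Testis over liver was 4.79 times (log2 2.2 ± 0.14, SE, adjusted p = 4.73e-06). In GENCODE M21, 6.93% of Mtf2 exon bases overlap Tmed5 on the other strand, and Tmed5 had the opposite tissue order, from 2.14 ± 0.0676 FPKM in WT testis to 18.3 ± 3.36 FPKM in WT liver (SD, n = 3 each). Smaller shares overlap for Suz12 (3.6%, with Gm26563) and Ezh2 (2.61%, with Gm26625). Those 2 genes averaged 0.116 and 0.0269 FPKM in WT testis.

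Phf19 (ENSMUSG00000026873) lies on chromosome 2 from 34893757 to 34914026 on the minus strand. It measured 0.0165, 0.108 and 0.398 FPKM in WT testis, 0.179, 0.249 and 0.189 FPKM in WT brain, and 0.583, 0.869 and 0.746 FPKM in WT liver. Liver was highest, and testis spanned the brain values. The WT testis values rest on 2, 14 and 49 reads, of which testis WT 3 holds most, and KO testis had 4, 9 and 6 reads, so in comparisons with testis the gene passed the filter through the other tissue. Brain was below liver by -1.44 ± 0.18 on the log2 scale (SE, limma adjusted p = 0.000228). Testis was below liver by -1.85 ± 0.51 (SE, adjusted p = 0.0112), which became -1.27 with scaling by total reads and was not called (adjusted p = 0.0654). Over the alternatives this difference ran from -3.74 to -0.57, so its size is not settled. Testis against brain was -0.41 ± 0.49 (SE, adjusted p = 0.456), and -0.97 without testis WT 3, which was called (adjusted p = 0.0185). With limma voom and quality weights it was -1.82 and also called (adjusted p = 0.0391).

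Epop, which links PRC2.1 to elongin BC in mouse embryonic stem cells, had the largest difference between tissues of the 10 subunits. Epop (ENSMUSG00000043439) lies on chromosome 11 from 97627389 to 97629702 on the minus strand. It measured 0.413, 0.503 and 0.619 FPKM in WT testis, 24.0, 18 and 22.5 FPKM in WT brain, and 2.93, 4.63 and 2.47 FPKM in WT liver. No tissues overlapped. The testis mean was 0.0238 of that in brain, with a log2 difference of -5.15 ± 0.17 (SE, limma adjusted p = 1.07e-07). The brain mean was 6.44 times that in liver (log2 2.69 ± 0.24, SE, adjusted p = 3.71e-05), and testis was at 0.153 of liver (-2.46 ± 0.26, SE, adjusted p = 9.04e-05). The testis values rest on 23, 30 and 35 reads. Of the summed PRC2.1 accessory transcripts (Mtf2, Phf1, Phf19 and Epop), Epop made up 0.675 ± 0.0785% in WT testis, 49.7 ± 4.36% in WT brain and 17.1 ± 6.63% in WT liver (SD, n = 3 each).

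The PRC2.2 subunits differed from each other. Jarid2, which recruits PRC2 and lacks demethylase activity of its own, was highest in testis, and Aebp2, a zinc finger protein that stimulates the enzyme, was highest in brain. Jarid2 (ENSMUSG00000038518) lies on chromosome 13 from 44729474 to 44921643 on the plus strand. It measured 6.60, 6.42 and 5.02 FPKM in WT testis, 4.29, 4.05 and 3.84 FPKM in WT brain, and 1.90, 1.69 and 2.05 FPKM in WT liver. The tissues did not overlap. Testis was 1.48 times brain (log2 0.55 ± 0.13, SE, limma adjusted p = 0.00475) and 3.20 times liver (1.62 ± 0.15, SE, adjusted p = 3.89e-05). Brain was 2.16 times liver (log2 1.07 ± 0.11, SE, adjusted p = 7.75e-05).

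Aebp2 (ENSMUSG00000030232) lies on chromosome 6 from 140622663 to 140678472 on the plus strand. It measured 4.56, 4.85 and 4.52 FPKM in WT testis, 7.68, 8.11 and 6.39 FPKM in WT brain, and 4.83, 4.12 and 4.58 FPKM in WT liver. Brain was highest, and testis and liver overlapped. Testis was 0.628 of brain (log2 -0.65 ± 0.11, SE, limma adjusted p = 0.000922), and brain was 1.64 times liver (0.70 ± 0.12, SE, adjusted p = 0.00112). Testis and liver were 0.04 ± 0.10 apart (SE, adjusted p = 0.698), a difference that was 0.76 and called with scaling by total reads (adjusted p = 0.000276). Jarid2 made up 56.2 ± 3.33% of the summed PRC2.2 transcripts in WT testis, 35.6 ± 2.12% in WT brain and 29.4 ± 1.38% in WT liver (SD, n = 3 each).

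The summed PRC2.1 accessory FPKM over the summed PRC2.2 FPKM averaged 7.15 ± 1.35 in WT testis, 3.79 ± 0.467 in WT brain and 3.11 ± 0.117 in WT liver (SD, n = 3 each). The tissues did not overlap, with an exact two-sided permutation p of 0.1 for each pair, the smallest possible. Epop made up 49.7% of the PRC2.1 sum in WT brain and 17.1% in WT liver, so the order of brain over liver depends on counting Epop. EPOP can join a complex that already holds a Polycomb-like protein, so the sum does not count complexes. Among the Polycomb-like transcripts alone, without Epop, Phf1 made up 87.0 ± 2.25% in WT testis, 72.5 ± 0.725% in WT brain and 83.4 ± 2.51% in WT liver (SD, n = 3 each). KO libraries had PRC2.1 over PRC2.2 ratios of 6.41 ± 0.226 in testis, 3.73 ± 0.0927 in brain and 2.66 ± 0.34 in liver (SD, n = 3 each). The log2 difference of KO from WT was -0.14, -0.02 and -0.23 in the same order of tissues, with exact p of 0.6, 0.8 and 0.2.

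**Figure D2:**
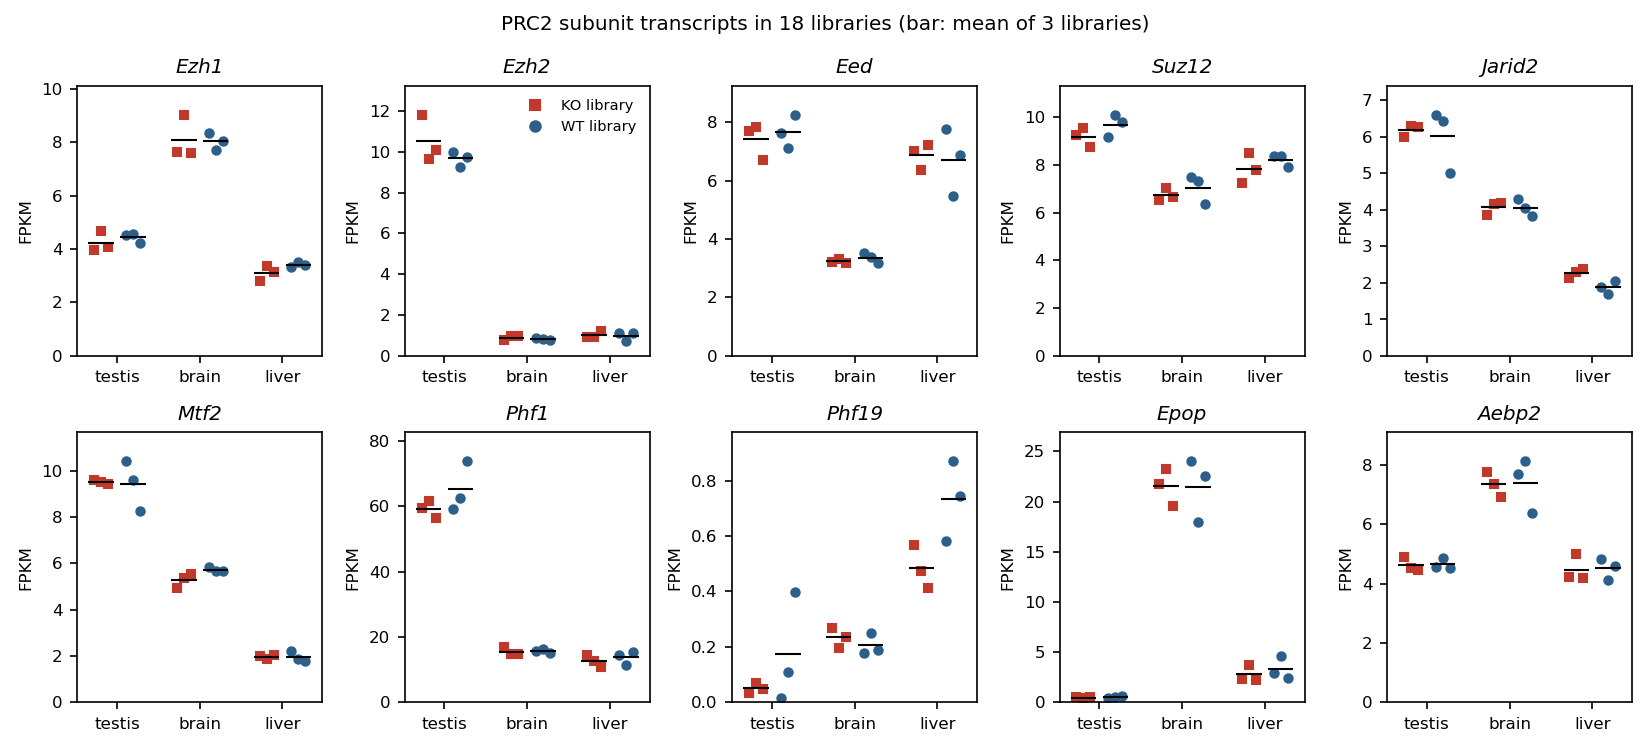
FPKM of the 10 PRC2 subunit transcripts in the 18 libraries, 1 panel a gene with its own linear axis from 0, tissues on the x axis, KO libraries as squares, WT libraries as circles and bars for the mean of 3 libraries. Ezh2 and Phf1 stand highest in testis (WT means 9.68 and 65.3 FPKM), Ezh1, Epop and Aebp2 in brain (8.02, 21.5 and 7.39 FPKM) and Phf19 in liver (0.733 FPKM).

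Across WT tissues, most subunits passed the test, as did most genes. Between testis and brain 9 of 10 subunits were called, 6 higher and 3 lower in testis, against a background of 86.1% of 22836 genes tested (50.1% higher, 35.9% lower). Between testis and liver 8 of 10 were called, 6 higher and 2 lower, against 87.7% of 21737 genes (57.8% higher, 29.9% lower). Phf19 is 1 of these 2 lower subunits, and it passed the filter through liver. Between brain and liver 8 of 10 were called, 5 higher and 3 lower, against 83.9% of 18166 genes (48.6% higher, 35.3% lower). The shares of subunits called are near these backgrounds, so the counts say nothing particular about PRC2. The median log2 difference of the subunits was 0.50 for testis minus brain, against 0.42 over all genes. It was 0.30 for testis minus liver, against 1.06 over all genes, and 0.45 for brain minus liver, against 0.32 over all genes. The medians over all genes depend on which genes passed the filter, as given below.

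Library scaling moved these medians. With libraries scaled by their total reads in place of the size factors behind the deposited FPKM, the median of all genes moved by 0.56 for testis minus liver, -0.09 for testis minus brain and 0.75 for brain minus liver. With total reads, 8 subunits were called higher and 1 lower in testis than in liver, against 66.9% and 20.9% of all genes. Between testis and brain 6 were then higher and 3 lower, against 48.4% and 37.2%, and between brain and liver 8 were higher and 1 lower, against 65.2% and 21.2%. Relative to the median of all genes, Ezh2 in testis stood 2.12 above liver and 2.98 above brain with the deposited scaling, and 2.24 and 2.99 with total reads. Epop in testis stood at -3.51 relative to liver and -5.56 relative to brain, and -3.38 and -5.60 with total reads. Relative to that median, Suz12 stood at -0.83 in testis minus liver and 0.04 in testis minus brain. Eed stood at -0.86 in testis minus liver and -1.28 in brain minus liver, and at -0.69 and -1.21 with total reads. Ezh1 stood at 0.89 in brain minus liver and -0.69 in testis minus liver, and at 0.96 and -0.53 with total reads. These positions also depend on which genes are tested. Without testis WT 1, testis could not pass a gene alone, and the testis minus liver median was -0.19 over 14391 genes. Suz12 at 0.27 and Ezh1 at 0.35 stood above it in that fit, and Eed was at least 0.06 in every alternative. Whether these 3 subunits lie below the typical gene in testis minus liver is therefore not settled. Without brain WT 1 the brain minus liver median was -0.164.

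**Figure D3:**
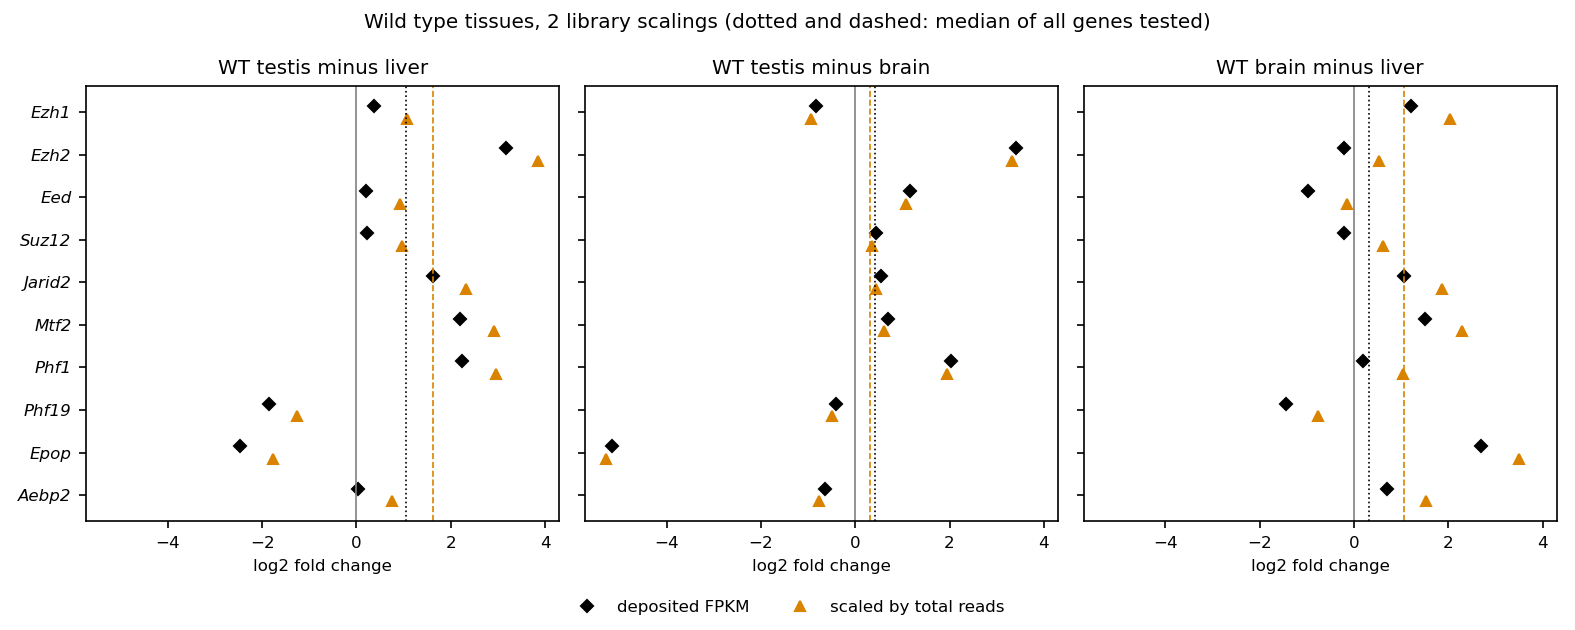
Log2 fold change of each subunit between WT tissues (x axis), from the deposited FPKM (diamonds) and with libraries scaled by total reads (triangles); the dotted and dashed lines are the median of all genes tested under each scaling. Triangles are shifted with their dashed line, and Ezh2 stays right of both lines in the comparisons with testis while Epop stays left of them.

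The same tissue comparisons were made among the KO libraries, which the WT comparisons did not use. Ezh2 in KO was 3.42 higher in testis than in brain and 3.24 higher than in liver on the log2 scale (limma adjusted p = 8.42e-08 and 7.38e-07). Epop in KO was lower in testis than in brain, with a log2 difference of -5.24 (limma adjusted p = 3.67e-09). Phf19 in KO was lower in testis than in brain (-1.14, adjusted p = 0.000194), which was not called in WT; it passed the filter there through brain. Phf1 in KO was higher in brain than in liver (0.30, adjusted p = 0.0463), which was not called in WT either (0.20, adjusted p = 0.157).

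No PRC2 subunit was called as different between KO and WT in any of the 3 tissues. In testis 0 of the 9 subunits tested were called, against 0.00448% of 22341 genes, and Phf19 had too few reads to be tested. In brain 0 of 10 were called, against 0.0837% of 17922 genes, and in liver 0 of 10, against 0.0212% of 14124 genes. With so few genes called in all, a count of 0 is also what the background gives. No subunit had an unadjusted limma p under 0.05 in any tissue, against 4.13% of all genes in testis, 4.46% in brain and 4.38% in liver. A p that misses the threshold does not show equal levels, so the intervals matter. The 95% intervals of the log2 fold change lay within -0.52 and 0.36 in testis, -0.29 and 0.55 in brain and -1.01 and 0.60 in liver.

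In testis, the estimates lay between -0.13 and 0.11 on the log2 scale. Ezh2 measured 11.8, 9.62 and 10.1 FPKM in KO testis, against 10, 9.27 and 9.73 FPKM in WT testis. The groups overlapped, and the log2 fold change was 0.11 with a 95% interval from -0.14 to 0.36 (limma adjusted p = 0.871). Phf1 measured 59.4, 61.8 and 56.6 FPKM in KO testis, against 59.3, 62.7 and 73.8 FPKM in WT testis. The highest value is that of testis WT 3, and the log2 fold change was -0.13 with an interval from -0.38 to 0.11 (adjusted p = 0.871). Jarid2 measured 5.99, 6.31 and 6.28 FPKM in KO testis, against 6.60, 6.42 and 5.02 FPKM in WT testis. Testis WT 3 was lowest here and for Mtf2, which measured 9.61, 9.53 and 9.43 FPKM in KO and 10.4, 9.61 and 8.28 FPKM in WT. Eed measured 7.71, 7.83 and 6.72 FPKM in KO testis, against 7.63, 7.12 and 8.25 FPKM in WT testis, and the groups overlapped. Of the 9 subunits tested in testis, no group pair was without overlap, against 11.9% of all genes tested.

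In brain, Mtf2 was the subunit whose groups did not overlap, a pattern seen in 9.08% of all genes tested. It measured 4.94, 5.35 and 5.53 FPKM in KO brain, against 5.85, 5.69 and 5.65 FPKM in WT brain. The KO libraries were lower, but the log2 fold change of -0.12 (95% interval -0.28 to 0.04) did not pass the test (limma adjusted p = 1). Summed glia markers also did not overlap, at 849 to 999 FPKM in KO brain and 752 to 838 FPKM in WT brain. Summed cerebellar granule cell markers measured 190, 161 and 158 FPKM in KO brain and 158, 151 and 96.3 FPKM in WT brain, with brain WT 3 lowest. All 5 of those markers were higher in KO brain, and none was called. The part of these cells in the Mtf2 values and the other brain values was not tested. Ezh1 measured 7.62, 9.02 and 7.60 FPKM in KO brain, against 8.35, 7.70 and 8.03 FPKM in WT brain. WT values lay within the KO range, and the log2 fold change was 0.01 with an interval from -0.18 to 0.19. Epop measured 21.8, 23.2 and 19.6 FPKM in KO brain, against 24.0, 18 and 22.5 FPKM in WT brain. KO values lay within the WT range, with a log2 fold change of 0.01 (95% interval -0.26 to 0.27).

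In liver, Jarid2 and Phf19 had groups that did not overlap, 2 of 10 subunits against 9.52% of all genes tested. Jarid2 measured 2.13, 2.30 and 2.38 FPKM in KO liver, against 1.90, 1.69 and 2.05 FPKM in WT liver. KO libraries were higher, with a log2 fold change of 0.26 (95% interval -0.08 to 0.60, limma adjusted p = 1). Phf19 measured 0.569, 0.474 and 0.414 FPKM in KO liver, against 0.583, 0.869 and 0.746 FPKM in WT liver. KO libraries were lower, with a log2 fold change of -0.50 (95% interval -1.01 to 0.01, unadjusted p = 0.0526, limma adjusted p = 1). The counts behind it were 36, 37 and 27 reads in KO and 39, 67 and 56 reads in WT. Ezh2 in liver measured 0.918, 0.927 and 1.24 FPKM in KO, against 1.13, 0.754 and 1.10 FPKM in WT. The groups overlapped, and with a log2 fold change of 0.05 the interval ran from -0.46 to 0.57.

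**Figure D4:**
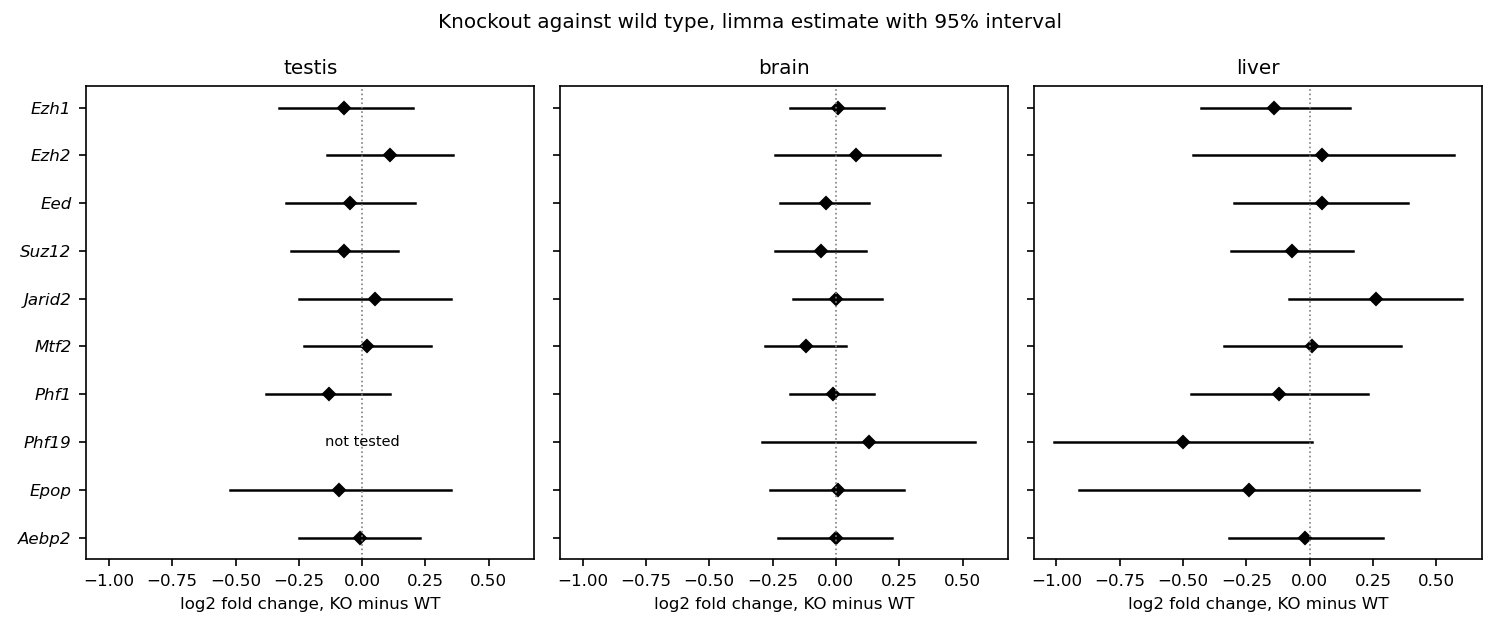
Log2 fold change of KO against WT for each subunit (x axis), as limma estimates (diamonds) with 95% intervals (bars) in testis, brain and liver. Every interval drawn includes 0, and the widest, that of Epop in liver, runs from -0.91 to 0.43; Phf19 was not tested in testis.

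The difference in KO effect between tissues was tested for each subunit. No subunit was called for testis minus liver (background 0.0457% of 13133 genes), testis minus brain (0.0626% of 15962) or brain minus liver (0% of 12922). The only unadjusted p under 0.05 was that of Phf19 for brain minus liver, with a difference of 0.63 ± 0.27 on the log2 scale (SE, unadjusted p = 0.0352, limma adjusted p = 1). These comparisons share the libraries of each tissue.

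Other proteins of the complex and the enzymes that remove its mark were examined as a list of 8. None was called between KO and WT, of 8 tested in testis, 7 in brain and 7 in liver. Rbbp4 and Rbbp7, histone-binding subunits shared with other complexes, differed in their tissue pattern. Rbbp4 measured 16.8, 17.0 and 17.9 FPKM in WT testis, 8.85, 8.43 and 8.64 FPKM in WT brain, and 14.4, 16.1 and 16.4 FPKM in WT liver. Brain was lowest, with a log2 difference from liver of -0.85 ± 0.07 (SE, limma adjusted p = 3.43e-05) that was -0.01 and not called with scaling by total reads (0.879). Rbbp7 lay between 27.4 and 35.2 FPKM in the WT libraries of all tissues and was called in none of the WT comparisons with limma on the deposited FPKM. Without testis WT 3 it was lower in testis than in brain (-0.23, adjusted p = 0.00658). With limma voom and quality weights it was also called lower there (-0.21, adjusted p = 0.0142). With scaling by total reads liver was lowest, by 0.73 against testis and 0.94 against brain (adjusted p = 0.00327 and 7.35e-06).

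Ezhip, an inhibitor of PRC2 that is known from germ cells and is named AU022751 in the files, was found in testis. It measured 0.722, 0.903 and 0.847 FPKM in KO testis, against 0.832, 0.882 and 0.986 FPKM in WT testis. WT brain held 0, 5 and 1 reads of it, and WT liver held none. The KO and WT testis groups overlapped, with a log2 fold change of -0.12 ± 0.16 (SE, limma adjusted p = 0.893). No fold between tissues is given, because Ezhip passed the filter only through testis and the estimate moved with the pseudocount.

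Lcor and Lcorl encode proteins of the PALI group, which join PRC2.1 in place of EPOP. Lcor measured 0.459, 0.351 and 0.129 FPKM in WT testis, 1.66, 1.39 and 1.18 FPKM in WT brain, and 2.64, 2.32 and 1.82 FPKM in WT liver. Testis was lowest, with a log2 difference from brain of -1.96 ± 0.34 (SE, limma adjusted p = 0.00107) and from liver of -2.6 ± 0.35 (SE, adjusted p = 0.000319). Lcorl was highest in testis, at 2.6, 2.57 and 2.07 FPKM in WT testis, 0.911, 0.913 and 0.983 FPKM in WT brain and 1.2, 0.87 and 1.04 FPKM in WT liver. Its log2 difference was 1.27 ± 0.13 for testis minus brain (SE, adjusted p = 6.7e-05) and 1.15 ± 0.17 for testis minus liver (SE, adjusted p = 0.000507), and brain and liver overlapped (-0.12, adjusted p = 0.456).

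Of the lysine 27 demethylases Kdm6a and Kdm6b and their Y-linked relative Uty, Kdm6a and Uty were lowest in testis. Kdm6a measured 1.15, 1.21 and 0.972 FPKM in WT testis, 3.11, 3.17 and 3.22 FPKM in WT brain, and 2.76, 2.99 and 2.46 FPKM in WT liver. Testis was below brain by -1.44 ± 0.12 on the log2 scale (SE, limma adjusted p = 1.78e-05) and below liver by -1.23 ± 0.15 (SE, adjusted p = 0.000157). Uty was lower in testis by -1.0 ± 0.15 against brain (SE, adjusted p = 0.000445) and -1.67 ± 0.15 against liver (SE, adjusted p = 3.29e-05). Kdm6b was not called in any WT tissue comparison with limma on the deposited FPKM, but without testis WT 3 testis exceeded brain by 0.39 (adjusted p = 0.00905). With limma voom and quality weights Kdm6b was called higher in testis than in brain (0.35, adjusted p = 0.00746) and liver (0.32, adjusted p = 0.0396). In liver it measured 4.12, 4.57 and 5.12 FPKM in KO, against 6.04, 4.78 and 5.83 FPKM in WT, and the groups overlapped (log2 -0.26, 95% interval -0.59 to 0.07, adjusted p = 1).

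A list of 26 developmental regulators that PRC2 is known to silence showed no called gene between KO and WT, of 9 tested in testis, 9 in brain and 4 in liver. The rest had too few reads to test. The median log2 fold change of the tested genes was -0.20 in testis, 0.01 in brain and -0.01 in liver, beside 0.03, 0.01 and 0.00 for all genes. The summed level of the list was 22.7 to 24.0 FPKM in KO testis and 25.0 to 27.3 FPKM in WT testis, without overlap. Much of the WT testis sum came from Gata4, Cdkn2a and Gata6, with means of 9.04, 4.48 and 4.03 FPKM. Groups did not overlap for 11.9% of all single genes tested in testis. Sums of several lists were looked at, so the cases without overlap are a description. Summed spermatogonium markers did not overlap in the same libraries either, at 33.7 to 37.5 FPKM in KO testis and 37.8 to 50.1 FPKM in WT testis, nor did glia markers, at 5.76 to 6.88 FPKM in KO testis and 4 to 4.56 FPKM in WT testis. Summed Sertoli markers overlapped, at 69.5 to 85.8 FPKM in KO testis and 76.5 to 108 FPKM in WT testis, and the part of these cells was not tested. The list's sum was 6.35 to 8.67 FPKM in KO brain and 6.74 to 8.49 FPKM in WT brain, and 17.1 to 19.4 FPKM in KO liver and 16.5 to 19.1 FPKM in WT liver. Several of these genes were at or near 0 in 1 tissue of a pair (Tbx5, Pax2, Wnt1 and Pax3 in WT liver) and passed the filter through the other, so no counts between tissues are given. Gata4, which marks testicular somatic cells and hepatocytes among others, measured 9.04 ± 0.375 FPKM in WT testis (SD, n = 3) and had no read in WT brain. Foxa1, a liver and endoderm regulator, measured 0.124 ± 0.0657 FPKM in WT testis and 7.94 ± 0.336 FPKM in WT liver (SD, n = 3 each). Eomes, a T-box factor of cortical progenitors and other lineages, measured 0.139 ± 0.0534 FPKM in WT testis and 2.39 ± 0.429 FPKM in WT brain (SD, n = 3 each).

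Proliferation genes, like Ezh2, were mostly higher in testis. Of 18 listed, 17 were higher and none lower in WT testis than in WT brain, against 50.1% and 35.9% of all genes, and the same numbers held against WT liver, where 57.8% and 29.9% of all genes were called. Some of the list passed the filter through testis alone, so the counts are a description. Top2a, a topoisomerase of dividing cells, measured 17.9 ± 1.02 FPKM in WT testis and 0.188 ± 0.00679 FPKM in WT brain (SD, n = 3 each). Foxm1, a regulator of mitotic genes, measured 26.3 ± 3.81 FPKM in WT testis and 0.17 ± 0.0587 FPKM in WT liver (SD, n = 3 each). None of the list was called between KO and WT in any tissue. Its summed level was 208 to 222 FPKM in KO testis and 207 to 218 FPKM in WT testis, 28.3 to 30.5 FPKM in KO brain and 28.3 to 28.6 FPKM in WT brain, and 31.8 to 34.9 FPKM in KO liver and 30.4 to 35.5 FPKM in WT liver.

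Over the 18 libraries, the 3 of 25130 genes with a pattern most like Ezh2 were Ska1, Pias4 and Urb2, each with a Pearson r of 0.997 on log2(FPKM + 0.1). Ska1, a kinetochore protein gene, averaged 6.08 FPKM in WT testis, 0.0363 FPKM in WT brain and 0.0524 FPKM in WT liver. Most like Ezh1 were Pygb (brain glycogen phosphorylase, 0.991), Thsd7a (0.991) and Gpc5 (0.990). Pygb averaged 4.55 FPKM in WT testis, 38.7 FPKM in WT brain and 2.06 FPKM in WT liver. Among the PRC2 subunits, Phf1 had an r of 0.97 with Ezh2 and Aebp2 an r of 0.92 with Ezh1, while Ezh1 and Ezh2 had an r of -0.26. These values describe 3 tissues more than 18 independent points, since libraries of a tissue lie close together and share its scaling.

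Ranked by level per length within WT testis, Phf1 (65.3 FPKM) was first, and Ezh2 (9.68), Suz12 (9.68) and Mtf2 (9.43) followed without separation beyond their spread. In WT brain, Epop (21.5 FPKM) and Phf1 (15.7) led, and of the next, Ezh1 (8.02) overlapped Aebp2 (7.39) and Aebp2 overlapped Suz12 (7.06). In WT liver, Phf1 (13.8 FPKM), Suz12 (8.22) and Eed (6.71) led, and the pairs Ezh1 (3.41) with Epop (3.34), Mtf2 (1.97) with Jarid2 (1.88) and Ezh2 (0.993) with Phf19 (0.733) overlapped. Ezh2 was level with Suz12 behind Phf1 in WT testis, and only Phf19 ranked below it in both other tissues. Summed over all 10 subunits, the level was 111 ± 3.93 FPKM in KO testis and 118 ± 6.35 FPKM in WT testis, 72.9 ± 2.9 FPKM in KO brain and 73.9 ± 3.45 FPKM in WT brain, and 43.5 ± 1.82 FPKM in KO liver and 45.5 ± 2.52 FPKM in WT liver (SD, n = 3 each).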

How the data were processed

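The submitters' processing notes name HISAT2 2.0.5, featureCounts 1.5.0-p3, DESeq2 1.16.1 and the build mm10. The authors deposited FPKM values for 52636 genes in each of 18 libraries. Multiplied by gene length, the values of a library came out as whole reads (tolerance 0.01 reads), and these reads served for depth and filters. The library sizes behind the FPKM equal median-of-ratios size factors over 14876 genes with a read in every library. The library total over this size was 0.823 to 0.969 in testis, 0.806 to 0.835 in brain and 1.44 to 1.52 in liver.

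The design allowed for counts or FPKM. Because the files hold FPKM, limma 3.58.1 (R 4.3.3) with a mean-variance trend was run on log2(FPKM + 0.1), keeping genes that reached 10 reads in 3 or more of the 6 libraries. Adjustment followed Benjamini and Hochberg over all genes tested, with a call at an adjusted p under 0.05. A fold on this scale understates the change of low genes. Differences of KO effects used the 12 libraries of both tissues. For ratios within a library, groups were tested by exact permutation, two-sided (scipy 1.17.1). The fits were also run on simulated libraries with planted changes larger than any KO estimate of a subunit. That run does not show whether changes as small as those estimates would be called.

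Replicate numbers are shared between tissues and not between genotypes. Deviations of same-numbered WT testis and liver libraries from their group means correlated at 0.11 to 0.23 over 11290 genes, so these numbers were taken as pairing the libraries, on the data alone. The main fits and the exact tests did not use this pairing. It entered only as the replicate block among the alternatives.

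Named genes are Pcgf6, the subunits, the 8 related proteins, up to 4 called genes a direction from each other list and the 3 genes most like Ezh1 or Ezh2. Genes and lists were chosen with earlier results of these data known. Gene positions are those of the files; 9 of the 10 subunits have the same start and end in GENCODE M21, and Phf1 does not. Promoter sequences are from RefSeq, GRCm38.p6. Alternatives were pseudocounts of 1 and 0.01, no filter, scaling by total reads, limma voom with and without quality weights, 1 fit over 18 libraries, KO libraries for the tissue comparisons, a replicate block and leaving out each library. With a library left out the filter still asked for 3 libraries, so a tissue left with 2 could not pass a gene alone. Without testis WT 1, the genes tested for testis minus liver fell from 21737 to 14391, and their median log2 difference from 1.058 to -0.19. Adjusted p values of such fits therefore rest on another set of genes.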

Additional observations from a re-analysis of the deposited data

How the results depend on the processing

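All counts of subunits called stayed at 0 or within 1.5 times their value in every alternative run. No subunit was called between KO and WT, or for a difference of KO effects, in any of them. The KO against WT ratios could not pass, since the exact p of 3 against 3 libraries is at least 0.1. Over the alternatives the log2 difference for Ezh1 to Ezh2 ran from -0.31 to -0.05 in testis, -0.16 to 0.01 in brain and -0.33 to 0.01 in liver. For PRC2.1 to PRC2.2 it ran from -0.23 to 0.01 in testis, -0.11 to 0.07 in brain and -0.34 to -0.15 in liver. With each library left out in turn, 6 to 7 of 10 subunits were called for testis minus liver, 9 to 10 for testis minus brain and 7 to 8 for brain minus liver. With the replicate block, 7, 9 and 7 subunits were called in the same order, against 8, 9 and 8 without it; besides Suz12 in testis minus liver and in brain minus liver, where the block gave -0.22 (adjusted p = 0.0638), it changed no other call of a subunit. Same-numbered WT libraries correlated at 0 to 0.12 in testis and brain and at 0.03 to 0.09 in brain and liver. By highest correlation, 2 of the 3 WT testis libraries matched their own number in brain, and all 3 WT brain libraries theirs in liver. Whether the numbers pair the libraries in these WT comparisons is not settled. In KO, same-numbered libraries correlated at 0.14 to 0.22 in testis and brain, above 0.1 in every pair. The KO values were 0.1 to 0.13 in testis and liver and 0.1 to 0.14 in brain and liver. In each KO comparison all 3 libraries of the first tissue matched their own number best. No block was fitted to the KO libraries alone, and the block left the differences of KO effect at 0 subunits called. Scaling by total reads turned the direction of 7 tissue differences: brain minus liver became 0.54 for Ezh2, 0.61 for Suz12, 0.76 for Kdm6b, 0.15 for Lcor, 0.63 for Lcorl and 0.13 for Uty, and testis minus liver became 0.73 for Rbbp7; the scaling itself moves every gene of a tissue by the shifts given above. In KO libraries brain minus liver was 0.26 for Kdm6b; the cause was not tested. Phf1 in brain minus liver was 1.03 and called with scaling by total reads. Values that missed the threshold in both settings and changed sign, at most 0.12 in size for KO against WT, are not counted as turned. Low reads limit Phf19 in testis and brain and Epop in testis.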
